A study of Homo sapiens with 12 samples.

Results

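The genes of oxidative phosphorylation were taken from the deposited table by their symbols: the NDUFA, NDUFB, NDUFC, NDUFS and NDUFV subunits of complex I, SDHA to SDHD of complex II, the UQCR genes of complex III, the COX genes with numbers 4 to 8 of complex IV, the ATP5F, ATP5M and ATP5P genes of complex V, and the protein genes of the mitochondrial genome. They were 99 of 59276 symbols, 86 in the nucleus and 13 in mitochondria. Pseudogenes matched by the same letters, 96 in all, were left out. MT-ATP6 and MT-ATP8 also end in the letters by which pseudogenes were set aside, but they are protein-coding and were kept. Without them 97 genes remain, and the counts of genes past the fold threshold below are the same. NDUFA4 is named after complex I but belongs to complex IV, and it was counted there.

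JJN3 is a cell line of multiple myeloma, a cancer of plasma cells. The samples were 4 groups with 3 replicates in each. JJN3 cells were given DMSO, the solvent, or 10 µM MS023, an inhibitor of the type I protein arginine methyltransferases, for 3 days. In the other pair of groups JJN3 cells carried Cas9 from a lentivirus and were sorted for mCherry. They were infected with a further lentivirus for the guide RNA, selected with puromycin, and induced with doxycycline for 3 days. The guide was a control guide (isgCtrl) or a PRMT1 guide named iPRMT1_1 (PRMT1-KO). PRMT1 is the main type I enzyme. The knockout rests on a single guide in a selected pool of cells. Nothing in the labels says whether replicates were separate cultures, so p measure the spread between these samples, which may be technical.

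Oxidative phosphorylation makes ATP in the inner mitochondrial membrane. Complexes I and II pass electrons from NADH and succinate to ubiquinone, complex III passes them on to cytochrome c, and complex IV gives them to oxygen. Complexes I, III and IV pump protons, and complex V, the ATP synthase, lets protons flow back and makes ATP. Most subunits are encoded by nuclear genes and imported, whereas a small core of complexes I, III, IV and V is encoded by mitochondrial DNA. Complex II is encoded by the nucleus alone. Mitochondrial DNA is read as long transcripts from both strands that are cut into single RNAs, and MT-ND6 is the only protein gene read from the light strand.

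The promoters of nuclear subunit genes are known for sites of NRF1, of ETS factors such as GABPA, of YY1 and of SP1. Promoter windows of 300 bases around the gene start were found in RefSeq (GRCh38.p14) for 68 of the 86 nuclear members, by symbol or earlier symbol. The letters GCATGCGC of NRF1, on either strand, were in 13 of 68 windows (19.1%) against 3.27% of all 27305 promoters. CTTCCGG of ETS factors was in 20 windows (29.4%, all promoters 10.7%), AAGATGGC of YY1 in 11 (16.2%, all promoters 3.03%) and GGGCGG of SP1 in 41 (60.3%, all promoters 44.6%). Against the 15843 promoters of protein-coding genes alone the shares were 4.26% for NRF1, 14.2% for ETS, 3.91% for YY1 and 58.5% for SP1. These are matches of letters, not sites shown to be bound. Shown here are UQCRH, the nuclear member with the largest significant fall under MS023, NDUFA6, the called fall whose window held the most kinds of these motifs, and NDUFC1, the largest significant rise among matched members. Motif letters are in capitals.
UQCRH: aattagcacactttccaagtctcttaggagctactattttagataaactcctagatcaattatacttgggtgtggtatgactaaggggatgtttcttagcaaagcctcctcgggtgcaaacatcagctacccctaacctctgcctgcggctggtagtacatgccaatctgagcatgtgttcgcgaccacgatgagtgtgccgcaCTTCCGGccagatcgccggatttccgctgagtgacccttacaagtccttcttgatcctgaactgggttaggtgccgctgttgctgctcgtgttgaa
NDUFA6: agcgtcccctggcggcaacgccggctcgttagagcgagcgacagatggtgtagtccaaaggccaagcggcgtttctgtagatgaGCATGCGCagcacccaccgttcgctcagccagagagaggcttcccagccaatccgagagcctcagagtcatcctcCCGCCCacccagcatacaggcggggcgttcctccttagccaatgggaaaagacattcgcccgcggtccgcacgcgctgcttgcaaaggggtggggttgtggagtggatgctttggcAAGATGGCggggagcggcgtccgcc
NDUFC1: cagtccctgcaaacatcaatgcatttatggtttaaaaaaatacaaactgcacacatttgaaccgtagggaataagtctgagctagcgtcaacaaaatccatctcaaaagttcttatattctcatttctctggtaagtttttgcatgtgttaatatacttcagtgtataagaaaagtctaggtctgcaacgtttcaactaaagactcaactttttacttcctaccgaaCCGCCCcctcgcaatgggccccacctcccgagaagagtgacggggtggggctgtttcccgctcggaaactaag
The window of UQCRH is chr1:46303448-46303747 on the plus strand and holds the ETS letters. That of NDUFA6 is chr22:42090723-42091022 on the minus strand, and the capitals from left to right are the letters of NRF1, of SP1 on the other strand and of YY1. That of NDUFC1 is chr4:139302502-139302801 on the minus strand and holds SP1 letters on the other strand.

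Some mitochondrial members cannot be fully separated by short reads. MT-ATP8 and MT-ATP6 lie on a shared RNA and overlap by 46 bases, at chrM:8527-8572 of GRCh38, and a read from this stretch belongs to both.
MT-ATP8 and MT-ATP6: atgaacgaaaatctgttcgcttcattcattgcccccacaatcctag
MT-ND4L and MT-ND4 overlap by 7 bases. MT-ND6 (chrM:14149-14673, minus strand) lies opposite the RNA of the other strand, and the sources used here do not say whether counting used strand, so MT-ND6 RNA and antisense RNA of the heavy-strand transcript cannot be told apart. The nuclear copy MTATP6P1 differs from MT-ATP6 at 10 of 681 bases. It was listed at log2(TPM+1) of 8.35 on average over the DMSO and MS023 samples, and its change with MS023 was 0.56 (standard error 0.06, limma, Benjamini-Hochberg adjusted p = 0.00103). With the copies summed into the mitochondrial genes the counts of called members were as before.

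Values are TPM, a share of all transcripts that is corrected for transcript length, and log2(TPM+1). Each sample has an identical TPM total, and these values do not hold the number of reads behind them. Between replicates of a group Pearson's r across genes was 0.993 to 0.996. All 8 plasma cell markers were above a log2(TPM+1) of 1 in every DMSO and MS023 sample. In the guide groups 6 of them were, whereas SLAMF7 was at 0.20 to 0.73 in all 6 samples and MZB1, at 6.70 to 6.75 in DMSO, was at 0.42 to 1.77. Of 5 T cell markers CD3G was listed at 0 and TRBC2 alone exceeded 1, in the MS023 samples only (1.49 to 1.87, against 0 to 0.08 in DMSO). The summed T cell markers were 0.45 to 0.74 TPM in DMSO and 1.99 to 3.29 TPM with MS023. They were 0.21 to 0.61 TPM in isgCtrl and 0.18 to 0.38 TPM in PRMT1-KO. The summed plasma cell markers were 833 to 880 TPM in DMSO and 1380 to 1430 TPM with MS023. Of the epithelial markers EPCAM was lower with MS023 (6.50 to 6.55 in DMSO, 5.89 to 6.01 with MS023, log2 levels) while KRT18 was higher (4.09 to 4.27 and 4.80 to 4.93), and so were KRT8 and CDH1. The summed stromal markers were 1.28 to 3.0 TPM in DMSO, 4.59 to 4.84 TPM with MS023, 1.51 to 14.48 TPM in isgCtrl and 1.22 to 2.32 TPM in PRMT1-KO. The summed erythroid markers were 3.53 to 5.91 TPM in DMSO, 3.8 to 10.38 TPM with MS023, 12.92 to 19.25 TPM in isgCtrl and 8.74 to 13.19 TPM in PRMT1-KO. The summed myeloid markers were 0.16 to 0.69 TPM in DMSO, 0.15 to 3.09 TPM with MS023, 0.14 to 1.08 TPM in isgCtrl and 0.08 to 0.2 TPM in PRMT1-KO. Their part in the results below was not tested. PRMT1 checked the labels: its log2(TPM+1) was 9.75 ± 0.02 (SD, n = 3) in isgCtrl and 8.25 ± 0.02 (SD, n = 3) in PRMT1-KO, and 9.35 ± 0.04 (SD, n = 3) in DMSO against 9.40 ± 0.05 (SD, n = 3) with MS023.

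In DMSO cells the 13 mitochondrial members together took 4.21% of all TPM and the 86 nuclear members 3.27%. The mitochondrial members ranged from 439 TPM for MT-ND5 to 8684 TPM for MT-CO2, with a median of 2372 TPM. The 79 nuclear members that passed the filter ranged from 1.8 TPM for COX7A1 to 2609 TPM for UQCRH, with a median of 310 TPM. The 7 nuclear members that did not pass (group mean of log2(TPM+1) over 1 in some of the groups compared) were ATP5MGL, COX4I2, COX6A2, COX6B2, COX7B2, COX8C and UQCRHL. These are mostly the tissue-restricted or testis forms of subunits whose common form was high: COX4I1 was 623 ± 9.4 TPM (SD, n = 3) in DMSO while COX4I2 was listed at 0 in every sample. COX6A1 was 890 ± 39 TPM, COX6B1 1146 ± 14 TPM and COX8A 580 ± 18 TPM in the same cells (SD, n = 3), while COX6A2, COX6B2 and COX8C did not exceed 0.88 TPM in any sample. COX7A2 was 369 ± 21 TPM and its heart and muscle form COX7A1 1.8 ± 0.8 TPM. COX7B was 98.0 ± 7.2 TPM, with COX7B2 at or below 0.436 TPM in every sample. For each of these pairs the common form was the expressed form.

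The first question was what inhibition of the type I enzymes did to these genes. With MS023 most mitochondrial members were higher, while the nuclear members as a group lay near the median of all genes. Of 13 mitochondrial members 12 were higher on average, and 9 rose at an adjusted p under 0.05 (69.2%, against 18.4% of the 12903 genes tested), with none significantly lower. MT-ND6 and MT-ND5 also passed the fold threshold of 0.48 on the log2 scale (2 of 13, 15.4%, where 11.6% of all genes passed upward). In 10 of 13 (76.9%) the 3 MS023 samples lay above the 3 DMSO samples, against 23.2% of all genes. The median change was 0.22, and that of all genes was -0.11. In bulk RNA, fewer cells of a type and less RNA per cell cannot be told apart. P come from limma with Benjamini-Hochberg adjustment over all genes tested, and a log2 fold change is the treated minus the control mean of log2(TPM+1), which understates changes of low genes.

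MT-ND6, a membrane subunit of complex I, was 1101, 1271 and 1232 TPM in the DMSO samples and 2019, 2162 and 2023 TPM in the MS023 samples. It was well above DMSO in every MS023 sample. The log2 fold change was 0.78 (standard error 0.08, limma, adjusted p = 0.000697). MT-ND5, a proton-pumping subunit of complex I and the lowest of the mitochondrial members, was 451, 431 and 437 TPM in DMSO and 634, 590 and 684 TPM with MS023. The groups did not overlap, and the log2 fold change was 0.53 (standard error 0.08, limma, adjusted p = 0.00241). Without the MS023 sample of replicate 3 the fold change was 0.476, just under the fold threshold. MT-CO1, the catalytic subunit of complex IV, was 6225, 6107 and 6165 TPM in DMSO and 8434, 7976 and 8723 TPM with MS023. Its log2 fold change was 0.44 (standard error 0.06, limma, adjusted p = 0.00241).

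The same cytochrome oxidase complex also held the members that moved least. MT-CO2, which takes electrons from cytochrome c, was 8820, 8597 and 8636 TPM in DMSO and 8335, 8473 and 8424 TPM with MS023. All MS023 samples lay just below DMSO, and the log2 fold change was -0.05 (limma, adjusted p = 0.522). MT-CO3 was 6519 ± 149 TPM in DMSO samples against 6543 ± 64 TPM in MS023 samples (SD, n = 3), a log2 fold change of 0.01 (adjusted p = 0.946). The signs of these 2 small changes depended on the scaling, with 0.06 for MT-CO2 under median-ratio scaling and -0.02 for MT-CO3 under quantile normalization. Under quantile normalization MT-CO2 was at -0.29 and passed the test (limma, Benjamini-Hochberg adjusted p = 0.00553), the sole mitochondrial member to fall past the test there. In the other mitochondrial members the log2 fold change was 0.36 for MT-CYB, the cytochrome b of complex III, 0.33 for MT-ATP6 and 0.29 for MT-ND4, each with an adjusted p under 0.05. MT-ATP8 was 0.22 higher without passing the test (adjusted p = 0.0524), and MT-ND4L was 0.19 higher, with DMSO and MS023 samples overlapping (adjusted p = 0.315). MT-ND1, MT-ND2 and MT-ND3 rose by 0.21 each (adjusted p of 0.0357, 0.045 and 0.0371). These 3 were the least firm. MT-ND1 did not pass with any of the 6 samples left out (adjusted p of 0.0547 to 0.108), nor under quantile normalization, where it was at 0.03. MT-ND2 and MT-ND3 passed when the DMSO sample of replicate 2 was left out but not when any other of the 6 was. The mitochondrial ribosomal RNAs MT-RNR1 and MT-RNR2 were 0.12 higher each without passing the test (adjusted p of 0.378 and 0.225), and the 22 mitochondrial tRNA genes were listed at 0 in every sample.

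**Figure D1:**
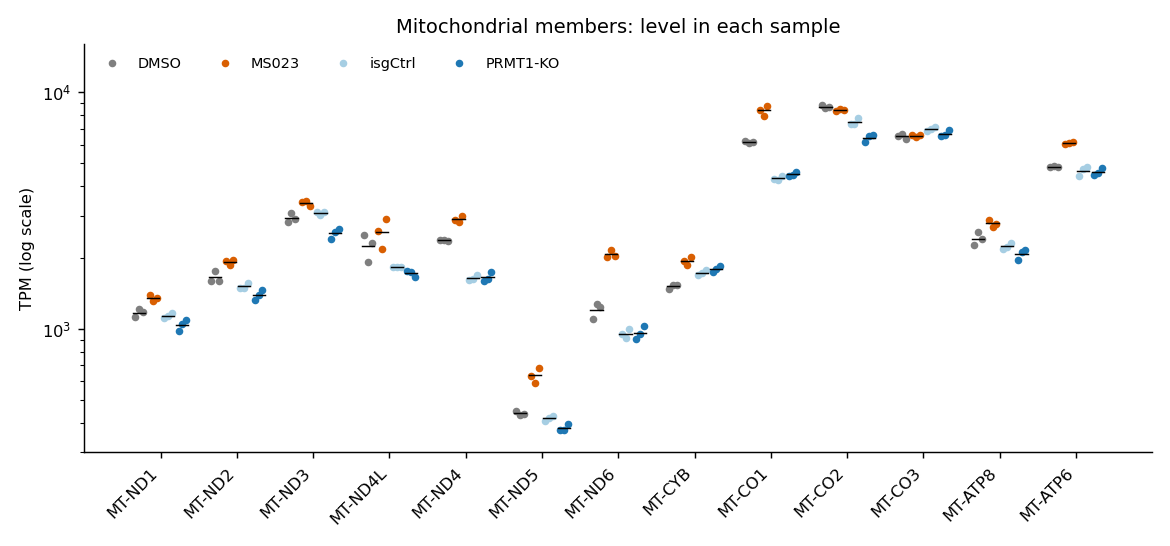
TPM on a log axis of the 13 mitochondrial members in each of the 12 samples, with points for single samples and a black line for each group mean. MS023 samples lie above DMSO samples for MT-ND6, MT-ND5 and MT-CO1, while MT-CO3 has the same level in both and MT-CO2 is slightly lower.

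Of the 79 nuclear members tested, 57 were lower with MS023 and 22 higher. At an adjusted p under 0.05 30 fell (38.0%, against 30.4% of all genes) and 6 rose (7.59%, against 18.4% of all genes). With the fold threshold 11 were called lower (13.9%, against 19.3% of all genes) and none higher. In 46 of the 79 (58.2%) the MS023 samples all lay below the DMSO samples, against 36.3% of all genes, and in 10 (12.7%) all lay above, against 23.2%. The median change was -0.15, against -0.11 for all genes. The shares called by fold were below those of all genes, and the shares lower at any size were above them. Median-ratio scaling moves the median of all genes to -0.02 and that of the nuclear members to -0.05. Under it 3 nuclear members were called higher and 6 lower, and under quantile normalization 1 higher and 8 lower. UQCRH, ATP5MPL, NDUFA2, COX6C, NDUFA10 and NDUFA6 were called lower under all 4 scalings.

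Complex I has 36 nuclear members, of which 12 fell (33.3%, all genes 30.4%) and 3 rose (8.33%, all genes 18.4%) at an adjusted p under 0.05. NDUFA10, a subunit of the membrane arm, was 106, 107 and 113 TPM in DMSO and 69.3, 70.7 and 67.9 TPM with MS023. The groups were far apart, and the log2 fold change was -0.64 (standard error 0.06, limma, adjusted p = 0.00053). NDUFA2, which sits on the matrix arm, was 256, 265 and 267 TPM in DMSO and 168, 178 and 158 TPM with MS023, a log2 fold change of -0.64 (adjusted p = 0.000892). NDUFA6 fell by 0.61 on the log2 scale, NDUFA5 by 0.57, NDUFB6 by 0.51 and NDUFS5 by 0.50, and these are accessory subunits, which surround the catalytic core. NDUFS5 was the most abundant complex I RNA of the nucleus, with 2026 ± 76 TPM in DMSO against 1433 ± 56 TPM with MS023 (SD, n = 3). NDUFB6 and NDUFS5 lay near the fold threshold, and without the MS023 sample of replicate 3 they were at -0.476 and -0.467, and NDUFS5 was at -0.468 without the DMSO sample of replicate 2. No nuclear core subunit was called, although NDUFV2, an iron-sulfur subunit, fell by 0.47 (adjusted p = 0.00182).

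A few subunits of the same complex rose. NDUFB9 was 424, 427 and 408 TPM in DMSO and 554, 579 and 557 TPM with MS023. Its log2 fold change was 0.42 (standard error 0.06, limma, adjusted p = 0.00226). NDUFC1 was 55.5, 61.4 and 61.2 TPM in DMSO and 78.3, 83.6 and 76.2 TPM with MS023, a log2 fold change of 0.41 (adjusted p = 0.00548). NDUFV1, the core subunit that binds NADH and FMN, was 163, 174 and 169 TPM in DMSO and 216, 224 and 226 TPM with MS023, a log2 fold change of 0.40 (adjusted p = 0.00321). In these 3 genes every MS023 sample was above every DMSO sample. NDUFV1 and NDUFV2, partners at the NADH end of the complex, thus moved to opposite sides.

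Of the 4 succinate dehydrogenase genes, SDHD, a membrane anchor, was 192, 202 and 205 TPM in DMSO and 141, 142 and 136 TPM with MS023. It was called lower at -0.51 with a standard error of 0.06 (limma, adjusted p = 0.0012). The flavoprotein SDHA rose by 0.21 (adjusted p = 0.0336), but with any of the 6 samples left out its adjusted p was 0.0632 to 0.0943. SDHB was at -0.15 (adjusted p = 0.116), and SDHC was at -0.01 (adjusted p = 0.929), with a sign that turned under 3 scalings.

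Among the nuclear parts of the complexes, the TPM sum of complex III was lower by the largest share. Its nuclear members were 4185, 3948 and 4067 TPM in total in DMSO and 2906, 2937 and 2819 TPM with MS023. UQCRH, the hinge protein near cytochrome c1, made most of this, with 2672, 2522 and 2634 TPM in DMSO and 1628, 1630 and 1580 TPM with MS023. MS023 samples were far below DMSO, and the log2 fold change was -0.69 (standard error 0.06, limma, adjusted p = 4e-04). UQCRH alone made up 7.99% ± 0.34 of the nuclear member TPM in the DMSO samples and 5.62% ± 0.07 in the MS023 samples (SD, n = 3). The small subunits UQCRQ, UQCR11 and UQCRB fell by 0.48, 0.39 and 0.37, and the Rieske iron-sulfur protein UQCRFS1 fell by 0.20 (adjusted p = 0.0432). Of the large core proteins, UQCRC2 rose by 0.25 (adjusted p = 0.0458) and UQCRC1 was at 0.07 (adjusted p = 0.428). UQCRC2 did not pass the test without the DMSO sample of replicate 2 or 3 or any MS023 sample, with adjusted p of 0.0753 to 0.124. UQCRH has a near-identical intronless copy, UQCRHL, which did not exceed 0.192 TPM in any sample.

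Of 13 nuclear members of complex IV tested, COX6C was called. It was 836, 851 and 896 TPM in DMSO and 569, 549 and 535 TPM with MS023. All MS023 samples lay far below DMSO, with a log2 fold change of -0.64 (standard error 0.06, limma, adjusted p = 0.000642). COX7C and NDUFA4 fell by 0.29 and 0.27. COX7A1 was at -0.69 but spread widely at 0.24 to 2.6 TPM and did not pass (adjusted p = 0.11). COX5A, at 0.02, and COX6B1, at -0.01, were among the most abundant of this complex and lay at the DMSO level, each with a sign that turned under another scaling (COX5A under quantile normalization, COX6B1 under median-ratio scaling).

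In the ATP synthase the 5 F1 subunit genes, ATP5F1A to ATP5F1E, which include the central stalk, had a median change of 0.03. The 13 tested genes of the membrane part and the peripheral stalk had a median of -0.33, with 8 of them lower at an adjusted p under 0.05 (61.5%, all genes 30.4%). The difference between these parts was not tested. Within F1, ATP5F1C, the gamma subunit of the rotor, fell by 0.30 (adjusted p = 0.0134). ATP5F1B, the catalytic beta subunit, was 762, 772 and 762 TPM in DMSO and 913, 890 and 918 TPM with MS023, a rise of 0.24 on the log2 scale (standard error 0.06, limma, adjusted p = 0.0138). ATP5MPL, a small membrane subunit now named ATP5MJ, was 196, 199 and 203 TPM in DMSO and 123, 137 and 121 TPM with MS023. Its log2 fold change was -0.65 (standard error 0.07, limma, adjusted p = 0.000935). ATP5PB, of the peripheral stalk, was called at -0.50 (adjusted p = 0.00538), but was at -0.449 without the DMSO sample of replicate 1 and at -0.44 without the MS023 sample of replicate 1. ATP5MG, ATP5PD, ATP5MC3 and ATP5PF fell by 0.45, 0.37, 0.37 and 0.37. ATP5MF-PTCD1, a read-through symbol that shares exons with ATP5MF and PTCD1, was at 0.29 (adjusted p = 0.108).

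**Figure D2:**
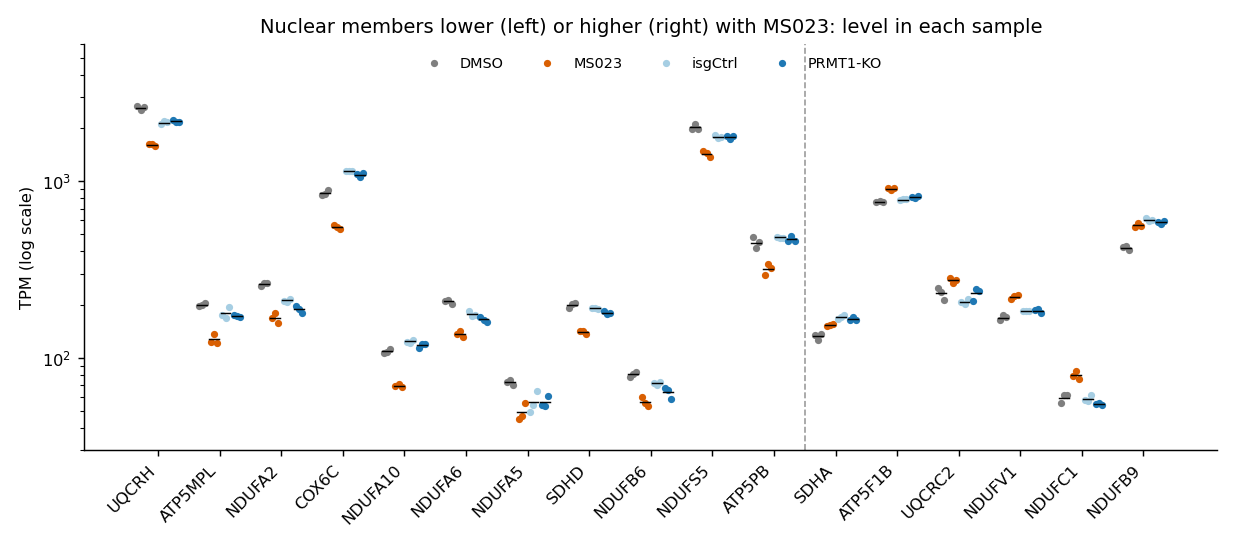
TPM on a log axis in each of the 12 samples for the 11 nuclear members called lower with MS023 (left of the dashed line, ordered by fold change) and the 6 that rose at an adjusted p under 0.05 (right). Points are single samples and black lines are group means, and PRMT1-KO samples lie close to isgCtrl samples throughout.

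A ratio taken within a sample does not change when all values of the sample are multiplied by a single factor, as in median-ratio scaling. Quantile normalization does more than that, and no such ratio was computed under it. The summed TPM of the mitochondrial members over that of the nuclear members was 1.30, 1.28 and 1.29 in the DMSO samples and 1.71, 1.63 and 1.78 in the MS023 samples. The groups did not overlap. The difference of the log2 ratio was 0.40, and it was 0.373 to 0.438 with each sample left out in turn. The sums themselves do depend on the scaling, and in TPM both moved. The mitochondrial sum was 42133 ± 239 TPM in DMSO and 48998 ± 993 TPM with MS023, and the nuclear sum was 32662 ± 436 and 28696 ± 709 TPM (SD, n = 3). Without UQCRH and NDUFS5 the nuclear sum was 28028 ± 436 TPM in DMSO and 25650 ± 644 TPM with MS023 (SD, n = 3). Under median-ratio scaling the median change was -0.05 in the nuclear members and 0.32 in the mitochondrial members. How much of the ratio came from the nuclear part thus depends on the scaling.

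The mitochondrial RNAs did not all move by the same amount. MT-CO1 and MT-CO2 lie on the same long transcript, and their ratio was 0.706, 0.710 and 0.714 in DMSO and 1.01, 0.941 and 1.04 with MS023. This pair was chosen after its values were seen, so it has no test. In isgCtrl the ratio was 0.582, 0.576 and 0.571 and in PRMT1-KO 0.717, 0.683 and 0.702. The MS023 samples lay above DMSO and the PRMT1-KO samples above isgCtrl. MT-ND6 was 2.62% to 3.00% of the mitochondrial member TPM in DMSO samples and 4.05% to 4.51% in MS023 samples.

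**Figure D3:**
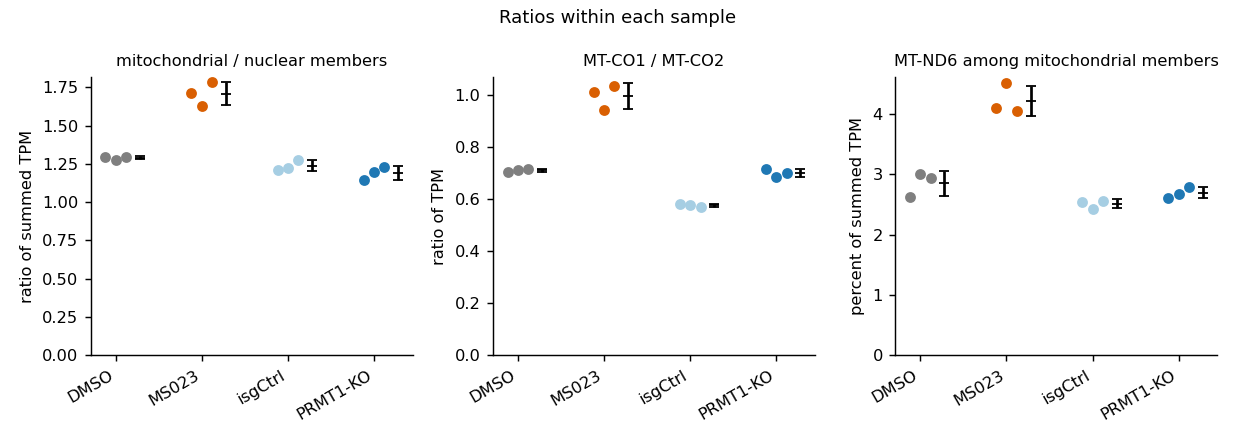
Each sample's ratio of summed mitochondrial to summed nuclear member TPM (left), ratio of MT-CO1 to MT-CO2 TPM (middle) and MT-ND6 as a percent of the mitochondrial member TPM (right), with the mean and SD of 3 samples beside the points. All axes start at 0, and the MS023 samples lie above all others in each panel.

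Genes that serve these complexes were described from lists. Of 17 genes of mitochondrial DNA upkeep and transcription, 6 were called lower (35.3%, all genes 19.3%) and 1 higher (5.88%, all genes 11.6%) with MS023. DNA2, a helicase and nuclease, fell by 1.14, PRIMPOL, a primase and polymerase, by 0.94 and TFB1M, which methylates mitochondrial ribosomal RNA, by 0.90, whereas TWNK, the mitochondrial helicase, rose by 0.64. TFAM, which packs mitochondrial DNA and is needed to start its transcription, was also among the 6, and is named here after its value was seen. Its log2(TPM+1) was 6.64, 6.65 and 6.68 in DMSO and 5.91, 6.07 and 6.10 with MS023, a fall of 0.63 (standard error 0.07, limma, adjusted p = 0.00115).

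Of 20 genes of mitochondrial RNA processing and stability, 5 were called lower (25.0%, near the 19.3% of all genes) and none higher. At an adjusted p under 0.05 of any size 11 of the 20 were lower (55.0%, all genes 30.4%) and none higher. LRPPRC, which stabilizes mitochondrial mRNAs, had log2(TPM+1) of 6.36, 6.25 and 6.28 in DMSO and 5.37, 5.12 and 5.44 with MS023. It fell by 0.99 with a standard error of 0.10 (limma, adjusted p = 0.000696), while most mitochondrial mRNAs were higher in the same samples. FASTKD1 fell by 0.88 and PRORP, the protein that cuts the 5′ ends of mitochondrial tRNAs, by 0.60. PRORP did not pass the test in 2 of 16 alternative analyses (limma, adjusted p up to 0.054). Of 11 tested nuclear regulators of respiratory genes 2 were called (18.2%, close to the 19.3% of all genes), both lower: GABPB1, the partner of GABPA, fell by 0.82 (adjusted p = 0.000773), and NRF1 fell by 0.67 (adjusted p = 0.00071). The ETS letters were in 8 of 24 matched promoters of members that fell and in 12 of 40 of the other members tested. The NRF1 letters were in 7 of those 24 and in 6 of those 40, and this difference was not tested.

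Of 54 assembly factors 16 were called lower (29.6%, all genes 19.3%) and 5 higher (9.26%, all genes 11.6%). NDUFAF1, an early complex I assembly factor, had log2(TPM+1) of 4.87, 4.98 and 4.79 in DMSO and 5.78, 5.73 and 5.85 with MS023, a rise of 0.90 (standard error 0.08, limma, adjusted p = 0.000381). UQCC1, for complex III, and ECSIT, for complex I, rose by 0.62 and 0.60. COX18, which inserts MT-CO2 into the membrane, fell by 1.01, DMAC1 by 0.82 and SCO1, a copper carrier for MT-CO2, by 0.77. Of 77 mitochondrial ribosomal proteins 13 were called lower (16.9%, below the 19.3% of all genes) and none higher, led by MRPL35 (fell by 0.98), MRPL42 (fell by 0.87) and MRPS31 (fell by 0.79). At an adjusted p under 0.05 of any size 36 of the 77 were lower (46.8%, all genes 30.4%) and 6 higher (7.79%, all genes 18.4%). Of 19 genes for cytochrome c, coenzyme Q and related subunits 3 were called (15.8%, below the 19.3% of all genes), all lower: COQ2 fell by 1.09, CYCS, cytochrome c itself, by 0.59 and COQ3 by 0.56. All these calls are at an adjusted p under 0.05 in limma with Benjamini-Hochberg adjustment.

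The second question was whether loss of PRMT1 alone did the same. In PRMT1-KO cells no member was called and none had an adjusted p under 0.05 in limma, while 0.415% of the 12285 genes tested were called higher and 0.366% lower (0.676% and 0.602% at an adjusted p under 0.05 of any size). At an unadjusted p under 0.05 there were 9 nuclear (11.4%) and 3 mitochondrial members (23.1%), against 18.6% of all genes. With a mean-variance trend in limma 2 mitochondrial and 4 nuclear members had an adjusted p under 0.05, all lower, and in a fit of all 12 samples MT-ND3 and MT-CO2 did (adjusted p of 0.0249 and 0.0332). The 95% confidence interval of the change lay within ± 0.48 for all 13 mitochondrial members and for 77 of 79 nuclear ones. The median change was -0.08 in the mitochondrial members, -0.03 in the nuclear members and -0.04 over all genes.

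Of the mitochondrial members 9 of 13 were lower on average in PRMT1-KO. In 7 (53.8%) the PRMT1-KO samples lay below the isgCtrl samples, against 17.6% of all genes. MT-ND3, a small complex I subunit, was 3122, 3024 and 3126 TPM in isgCtrl and 2390, 2572 and 2635 TPM in PRMT1-KO. The log2 fold change was -0.29 (standard error 0.06) and did not pass the test (limma, adjusted p = 0.091). MT-CO2 was 7351, 7369 and 7763 TPM in isgCtrl and 6185, 6518 and 6571 TPM in PRMT1-KO, at -0.22 (adjusted p = 0.122). The groups did not overlap in either gene. The other mitochondrial members ran from -0.14 for MT-ND1, -0.13 for MT-ND5, -0.12 for MT-ND2 and for MT-ATP8, -0.08 for MT-ND4L and -0.06 for MT-CO3 to 0.06 for MT-CYB and MT-CO1. MT-ATP6 at -0.02, MT-ND4 at 0.01 and MT-ND6 at 0.01 had signs that turned with the scaling or with a sample left out, and so did that of MT-CO3 under quantile normalization. The ratio of summed mitochondrial to nuclear member TPM was 1.21, 1.23 and 1.28 in isgCtrl and 1.14, 1.20 and 1.23 in PRMT1-KO, which overlap.

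The nuclear members stayed within a narrow band in PRMT1-KO. In 28 of 79 (35.4%) the PRMT1-KO samples lay below isgCtrl and in 6 (7.59%) above, where the shares of all genes were 17.6% and 9.11%. The furthest changes in complex I were -0.33 for NDUFA7 and -0.22 for NDUFA3, against 0.13 for NDUFS1 and 0.12 for NDUFB5. In complex II SDHD was at -0.08, SDHA at -0.04, SDHC at 0.01 and SDHB at 0.03. UQCR10 and UQCR11 of complex III were at -0.21 and -0.10, and UQCRC2 and UQCRC1 at 0.15 and 0.09. In complex IV COX8A and COX7B were both at -0.11 and COX7A2L at 0.05, while COX7A1 was at 0.51 near the limit of detection, at 1.6 TPM or less in every sample of both groups. In complex V ATP5ME was at -0.29 and ATP5F1E at -0.17, with ATP5MF-PTCD1 at 0.18 and ATP5F1C at 0.11. Adjusted p of all these were 0.123 or more. Of the genes that serve the complexes NDUFAF7, a methyltransferase needed for complex I assembly, was called, at -0.50 (adjusted p = 0.0475). That call was lost in 11 of 16 alternative analyses.

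**Figure D4:**
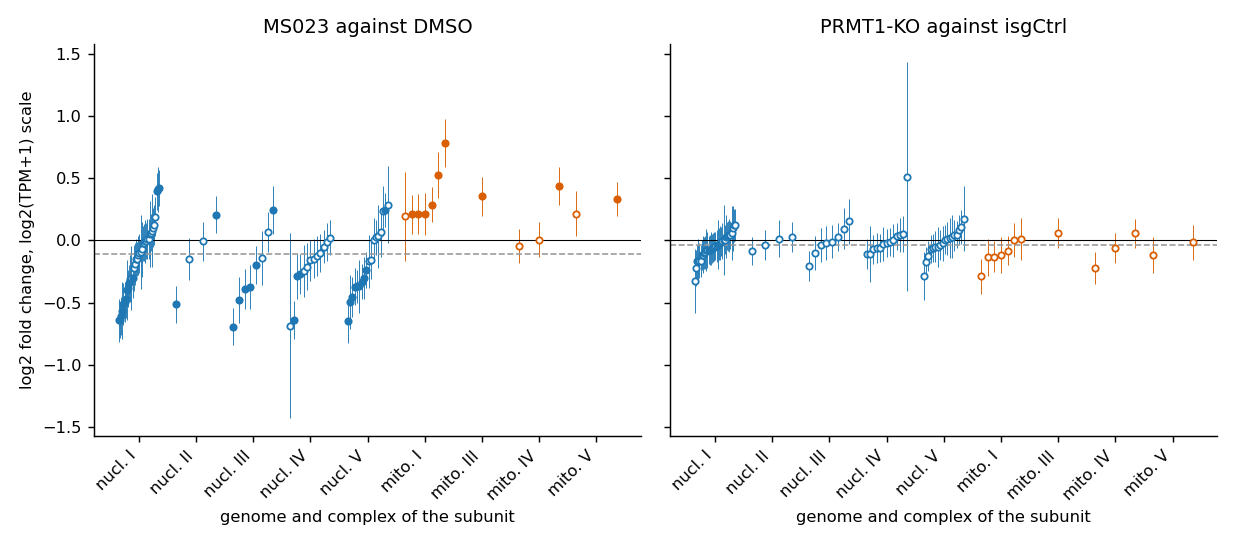
Log2 fold change on the log2(TPM+1) scale with its 95% confidence interval for each of the 92 members tested, by genome and complex, with MS023 against DMSO on the left and PRMT1-KO against isgCtrl on the right. Blue points are nuclear and orange points mitochondrial members, filled points have an adjusted p under 0.05, and the dashed line is the median of all genes tested (-0.11 left, -0.04 right).

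Whether MS023 and PRMT1-KO moved a gene differently was tested as the MS023 effect minus the PRMT1-KO effect, with all 12 samples fitted together. It was higher at an adjusted p under 0.05 for 10 mitochondrial members (76.9%, against 14.4% of the 13256 genes tested) and lower for none. Of the nuclear members 6 were higher (7.59%) and 29 lower (36.7%, against 21.2% of all genes). With the fold threshold 3 mitochondrial members were called higher, where 9.69% of all genes were, namely MT-ND6 at 0.77, MT-ND5 at 0.66 and MT-ND3 at 0.50. MT-ND3 was under the threshold without the DMSO sample of replicate 1 (0.475) and without the PRMT1-KO sample of replicate 1 (0.462). Among nuclear members 8 were called lower (10.1%, against 14.7% of all genes), of which UQCRH at -0.72, ATP5MPL at -0.60, NDUFA10 at -0.58, COX6C at -0.57 and NDUFA5 at -0.57 were the largest. NDUFC1 was called higher at 0.51, but at 0.465 without the DMSO sample of replicate 1, at 0.475 without the MS023 sample of replicate 2 and at 0.476 without the isgCtrl sample of replicate 3. Under median-ratio scaling the nuclear calls were 2 higher and 5 lower.

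The control groups, DMSO and isgCtrl, themselves had different levels. They differ in Cas9, guide, sorting, puromycin selection, doxycycline and DMSO, which cannot be told apart, and their values are given side by side. MT-CO1 was 6166 ± 59 TPM in DMSO and 4321 ± 101 TPM in isgCtrl, and MT-ND4 2372 ± 15 and 1644 ± 40 TPM (SD, n = 3). The 2 mitochondrial ribosomal RNAs summed to 7463 ± 410 TPM in DMSO and 5094 ± 134 TPM in isgCtrl (SD, n = 3). COX6C went the other way, with 861 ± 31 TPM in DMSO and 1142 ± 5.0 TPM in isgCtrl, and so did NDUFB9, with 419 ± 10.5 and 604 ± 9.7 TPM (SD, n = 3). NDUFB9 with MS023, at 563 ± 14 TPM, was thus still below its level in both guide groups, while COX6C with MS023, at 551 ± 17 TPM (SD, n = 3), was below all other groups. These examples are no split by genome. MT-CYB was higher in isgCtrl (1514 ± 35 TPM in DMSO, 1723 ± 39 TPM in isgCtrl) and NDUFA1 lower (452 ± 7.3 and 306 ± 12 TPM, SD, n = 3). Both sums were lower in isgCtrl, with 42133 and 37998 TPM for the mitochondrial and 32662 and 30675 TPM for the nuclear members.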

How the data were processed

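RNA of 12 JJN3 samples was sequenced. The authors used Trimmomatic and FastQC on the reads, STAR for alignment (hg38, GENCODE V35) and Salmon for quantification, and deposited gene-level log2(TPM+1), which was used unchanged. The library type and strandedness are not given in the sources used here. Depth cannot be read from TPM, so no count model was used.

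A gene entered a test if its mean log2(TPM+1) exceeded 1 in any group compared. Tests were run with limma 3.58.1 in R 4.3.3 (eBayes without trend, group as the only term) on the 6 samples of a comparison, or on all 12 for the difference of effects. P were adjusted by Benjamini-Hochberg over all genes tested. A gene was called where the adjusted p was under 0.05 and the log2 fold change beyond 0.48 in size, which are cutoffs from the study's methods. For MS023 they called 1500 genes higher and 2486 lower here, many more than the study reported. For PRMT1-KO they called 51 higher and 45 lower, close to the number the study reported. The reason for the gap with MS023 was not tested. The code was tested on simulated data. Sums and ratios were taken after turning values back to TPM. No p is given for them, since the members were chosen as stated below. Positions come from GENCODE v44 and promoters from RefSeq (GRCh38.p14).

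The members and gene lists were chosen with earlier results of these data known. Named genes are the mitochondrial members, the 2 largest changes each way per complex, called members, members below the filter, the paralog pairs, up to 3 called genes each way per list, and up to 5 called members each way for the difference. Other members with an adjusted p under 0.05, and TFAM, were named after their values were seen. Alternatives were other pseudocounts, filters, scalings, variance models and call thresholds, the replicate block, copies summed, all samples in a single fit, and each replicate left out. Same-numbered samples varied together weakly at most. For MS023 and DMSO the r of their deviations was 0.03 to 0.12, against -0.12 to 0.04 for different numbers. For PRMT1-KO and isgCtrl it was -0.15 to 0.08, against -0.09 to 0.17. Numbers were not taken as pairs in the main fits, and weak pairing in MS023 and DMSO is not excluded.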

Additional observations from a re-analysis of the deposited data

Results flagged for a closer look

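The effects of MS023 and of PRMT1-KO differed in the members below by a test of the difference itself, in a limma fit of all 12 samples with Benjamini-Hochberg adjustment. Of the mitochondrial members 3 differed with the fold threshold, all higher (23.1%, against 9.69% of all genes). Of the nuclear members 9 did, with 1 higher (1.27%, all genes 9.69%) and 8 lower (10.1%, below the 14.7% of all genes). The difference, MS023 effect minus PRMT1-KO effect on the log2 scale, was 0.77 for MT-ND6, 0.66 for MT-ND5 and 0.50 for MT-ND3. It was -0.72 for UQCRH, -0.60 for ATP5MPL, -0.58 for NDUFA10, -0.57 for COX6C and -0.57 for NDUFA5. NDUFC1 differed in the other direction, at 0.51. The MS023 groups carry no Cas9 and the PRMT1-KO groups do, so the agent and the cell background cannot be told apart in this difference.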

How the results depend on the processing

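The numbers of called members (11 nuclear and 2 mitochondrial for MS023, 0 and 0 for PRMT1-KO, 9 and 3 for the difference) kept within 1.5 times, both directions together, under every filter, scaling, pseudocount and variance model and with copies summed. By direction, median-ratio scaling moved the nuclear calls from 0 higher and 11 lower to 3 and 6 for MS023, and from 1 and 8 to 2 and 5 for the difference. With no fold threshold they were 36 and 9 for MS023 and 35 and 10 for the difference, and with a log2 threshold of 1 all 4 were 0, which follows from the size of the changes. Leaving out each replicate gave 1 to 2 called mitochondrial members for MS023. Leaving out MT-ATP6 and MT-ATP8, an alternative chosen after seeing the data, changed no count. With the replicate block in limma the called members were 11 and 2 for MS023, 0 and 0 for PRMT1-KO, and 9 and 3 for the difference, while over all genes the adjusted p under 0.05 in PRMT1-KO went from 157 genes to 0, PRMT1 included (adjusted p = 0.149). The block left 6 of 9 mitochondrial members with an adjusted p under 0.05 for MS023. Signs turned in members near 0. For MS023, median-ratio scaling gave 0.0914 for COX6B1, 0.0586 for MT-CO2 and 0.0964 for SDHC, SDHC was 0.0034 without MT- rows in the scaling, and quantile normalization gave -0.0573 for COX5A, -0.0157 for MT-CO3 and 0.0202 for SDHC. For PRMT1-KO, median-ratio scaling gave 0.0246 for MT-ATP6 and 0.0007 for SDHA, and quantile normalization gave 0.0127 for MT-CO3 and -0.0105 for MT-ND4. With each replicate left out in turn, MS023 values ran from -0.043 to 0.0150 for COX6B1, -0.0119 to 0.0209 for MT-CO3 and -0.0302 to 0.0316 for SDHC. PRMT1-KO values ran from -0.0522 to 0.0122 for MT-ATP6, -0.0302 to 0.0304 for MT-ND4, -0.0363 to 0.0559 for MT-ND6 and -0.0134 to 0.0553 for SDHC. Over all genes the PRMT1-KO comparison had 157 genes with an adjusted p under 0.05, and 2 to 21 with any sample left out. The cause of these turns was not tested. TPM hold no read counts, so the precision that depth gives a single value cannot be computed from them.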
